A study of Mus musculus with 24 samples.

Results

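Neuronal pentraxins and C1q-like proteins organize synapses from the extracellular side, and their genes Nptx1, Nptx2, Nptxr, C1ql3, Cbln1, Cbln2 and Cbln4 were followed in mouse brain after a light pulse. The 7 genes were chosen by name with earlier results of these arrays in view, where Nptx1 and C1ql3 had differed between pulsed and sham mice, so the light differences of these 2 genes are given as a description with no p-value. They are 7 genes with 15 probe sets, out of 18193 genes with a probe set assigned to 1 symbol, and 5 of the 7 (Nptx1, C1ql3, Cbln1, Cbln2 and Cbln4) were among the 13494 genes tested. Nptx2 did not reach the minimum level for a test, and the probe sets of Nptxr are annotated to 2 overlapping genes.

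The samples came from C57BL/6 mice, 8 weeks old when they arrived, that had lived in constant dim red light for at least 7 days. Light that advances the clock was given for 30 min, or a sham treatment was given instead, and tissue was taken 3.5 h afterwards. The ventral part (core), central part and dorsal part (shell) of the suprachiasmatic nucleus (SCN), the hypothalamic seat of the circadian pacemaker, were cut out by laser. The 6 groups were pulsed ventral, pulsed central, pulsed dorsal, sham ventral, sham central and sham dorsal, with 4 arrays each. Replicates 1 and 2 of each group were amplified and labelled in batch A and replicates 3 and 4 in batch B. The labels name no transgene and do not say which arrays share an animal, so the p-values measure only the spread between these samples, which may be partly technical.

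Neuronal pentraxins are secreted proteins that form large complexes at excitatory synapses and gather AMPA-type glutamate receptors there. Nptx1 and Nptx2 (Narp) are released from the presynaptic side, Nptx2 is an immediate early gene in other brain regions, and Nptxr is anchored in the membrane and joins the same complexes. Cerebellins and the C1q-like proteins share a globular C1q domain and act as bridges across the cleft. Cerebellins bind neurexins on the axon, and Cbln1 and Cbln2 also bind delta glutamate receptors on the dendrite. C1ql proteins bind the adhesion receptor Adgrb3 (BAI3). In the SCN, retinal axons release glutamate onto neurons of the core, and most SCN neurons also release GABA onto each other.

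All values below are the authors' log2 expression values, on which a step of 1 is a doubling, and a value is read only against the same probe set on other arrays. Array medians were 3.52 to 3.62 for batch A arrays and 4.81 to 5.07 for batch B arrays, so values were compared within a batch or with the batch as a term. Pulsed dorsal array 4 stood apart, with a 3′ minus 5′ difference of the Gapdh control probe sets of 5.41 against at most 1.07 on the other arrays of batch B, and a median correlation with its batch of 0.913 against at least 0.977. Pulsed central array 2 had the lowest such correlation in batch A (0.955, against at least 0.976). Some peptides separated the ventral from the dorsal label. Vip and Grp, made by core neurons, were higher in the ventral than in the dorsal SCN (by 3.43 and 1.58, adjusted p = 9.97e-08 and 1.56e-07, limma). Avp, made by shell neurons, was lower (-1.43, adjusted p = 0.00074, limma), the 1 of 3 shell genes (Avp, Prok2 and Avpr1a) that passed there. The core peptides did not mark the ventral against the central SCN, where 0 of 2 were higher and 1 was lower (median -0.17). Of the 3 shell genes 0 were higher and 1 lower in the central than in the dorsal SCN (median 0.42).

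Nptx1 was the member with the largest difference between pulsed and sham arrays in every region. In the ventral SCN it read 7.93 and 8.66 on the pulsed arrays of batch A and 9.96 and 9.48 on those of batch B, against 4.85 and 4.93 on the sham arrays of batch A and 6.28 and 6.67 on those of batch B. The lowest pulsed array lay above the highest sham array even across the batches. The fitted difference was 3.33 ± 0.235 (log2, SE, 4 against 4 arrays), a 10.0-fold higher level in pulsed ventral SCN. In the central SCN Nptx1 read 7.61 and 7.96 (batch A) and 10.16 and 9.70 (batch B) on pulsed arrays, against 4.80 and 4.96 (batch A) and 6.32 and 7.12 (batch B) on sham arrays. Pulsed and sham central arrays were separated in the same way, by 3.06 ± 0.235 or 8.35-fold. In the dorsal SCN the pulsed arrays had 7.36 and 7.37 in batch A and 9.52 and 8.45 in batch B, against 5.04 and 4.80 in batch A and 6.995 and 7.07 in batch B on the sham arrays. The groups again did not overlap, and the difference was 2.20 ± 0.235, or 4.58-fold. The lower pulsed value in batch B, 8.45, belonged to array 4, the array that stood apart, and without it the dorsal difference was 2.41.

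The second Nptx1 probe set was dim, above 4 on 8 arrays, and differed the same way by 2.04 in the ventral, 1.90 in the central and 1.44 in the dorsal SCN. In bulk tissue of this kind a change in the number of cells that make a transcript and a change in the RNA per cell cannot be told apart. Nptx1 was the single member for which both pulsed arrays lay above both sham arrays in all 6 pairs of region and batch, by 1.95 to 3.40. Among all genes tested, 70 (0.519%) had that pattern. In sham tissue Nptx1 varied little between regions, with 4.80 to 5.04 on batch A arrays and 6.28 to 7.12 on batch B arrays.

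**Figure D1:**
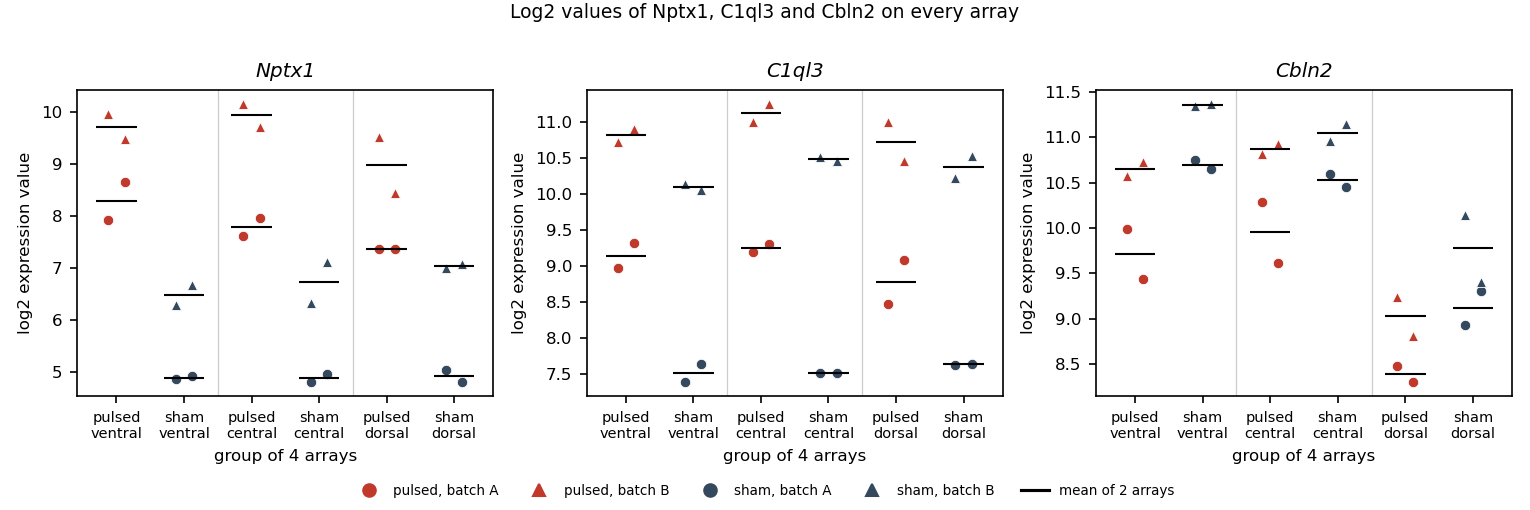
Log2 expression values (vertical axis) of Nptx1, C1ql3 and Cbln2 on each of the 24 arrays, with the pulsed group left of the sham group in each region, circles for batch A, triangles for batch B and black lines for the mean of the 2 arrays of a batch. All pulsed arrays of Nptx1 lie above the sham arrays of the same region, C1ql3 is higher within each batch except for 1 overlapping pair in the dorsal SCN, and Cbln2 is lower within each batch.

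Nptx2, the activity-regulated relative of Nptx1, gave no signal that could be compared. Its leading probe set lay between 2.62 and 3.92 on 23 of the 24 arrays, below the level of 4 that a gene had to exceed on 4 arrays to be tested. The exception was pulsed dorsal array 4 at 5.57, the array that stood apart, where the other pulsed dorsal arrays read 2.69, 2.91 and 3.35 and the sham dorsal arrays 2.96, 3.50, 3.92 and 3.54. The fitted differences, 0.09, 0.01 and 0.15 (each ± 0.304) in ventral, central and dorsal SCN, are therefore those of a probe set near background, and without array 4 the dorsal difference was -0.37 (95% interval -0.67 to -0.06). The second probe set did not exceed 4 on any array.

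Nptxr, the membrane-anchored receptor of the family, was read from a probe set that is also annotated to Npcd, a read-through transcript that overlaps it, and the 2 cannot be told apart here. It read 6.92 and 6.62 (batch A) and 8.93 and 9.20 (batch B) in pulsed ventral SCN, against 7.16 and 7.21 (batch A) and 9.23 and 9.18 (batch B) in sham ventral SCN. The batch B arrays overlapped, and the difference was -0.27 ± 0.207 with a 95% interval of -0.71 to 0.16. In the central SCN the pulsed arrays had 6.61 and 5.84 in batch A and 8.59 and 8.88 in batch B, against 7.12 and 6.75 in batch A and 8.98 and 8.66 in batch B on the sham arrays (-0.39 ± 0.207, interval -0.83 to 0.04). The lowest of these, 5.84, was on pulsed central array 2, the array with the lowest correlation in batch A. In the dorsal SCN the difference was 0.09 ± 0.207 (interval -0.34 to 0.52), with 7.10, 7.01, 8.99 and 10.10 on pulsed arrays against 7.21, 7.21, 9.30 and 9.12 on sham arrays. The 10.10 was on pulsed dorsal array 4, the array that stood apart, and the other 3 pulsed dorsal arrays lay below both sham dorsal arrays of their batch. Without array 4 the dorsal difference was -0.16 (interval -0.52 to 0.21). The second probe set, dim and above 4 on 9 arrays, differed by -0.08 in the ventral, -0.09 in the central and -0.37 in the dorsal SCN (dorsal interval -0.68 to -0.06), so in the dorsal SCN its sign was opposite to that of the leading probe set with all arrays. The third, above 4 on 2 arrays, differed by 0.02, 0.19 and -0.24. A light difference in Nptxr as large as that of Nptx1 lies outside the intervals of the leading probe set in all 3 regions.

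C1ql3, a C1q-like protein that binds Adgrb3, was the other member with higher values after the pulse. In the ventral SCN it read 8.97 and 9.31 on pulsed arrays of batch A and 10.73 and 10.91 on those of batch B, against 7.38 and 7.64 on sham arrays of batch A and 10.14 and 10.06 on those of batch B. Pulsed and sham arrays did not overlap within a batch, and the fitted difference was 1.18 ± 0.233 (2.26-fold higher in pulsed ventral SCN). The central SCN had 9.19 and 9.30 (batch A) and 11.00 and 11.26 (batch B) on pulsed arrays, against 7.51 and 7.52 (batch A) and 10.51 and 10.46 (batch B) on sham arrays. That is a difference of 1.19 ± 0.233, or 2.28-fold. In the dorsal SCN the pulsed arrays read 8.47 and 9.08 in batch A and 11.00 and 10.46 in batch B, against 7.62 and 7.64 in batch A and 10.22 and 10.53 in batch B on the sham arrays. Array 4 of the pulsed dorsal group, at 10.46, fell between its sham counterparts, and the difference was 0.75 ± 0.233 (1.68-fold), or 0.91 without that array.

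On the leading probe set the C1ql3 differences were larger in batch A, at 1.63, 1.73 and 1.14 in ventral, central and dorsal SCN, than in batch B, at 0.72, 0.64 and 0.36. Whether the batches differ beyond the spread of 2 arrays was not tested. The sham values of that probe set were 10.06 to 10.53 in batch B, against 7.38 to 7.64 in batch A. The second C1ql3 probe set differed by 1.06, 1.17 and 0.63 in the 3 regions and the third, dimmer one by 0.50, 0.77 and 0.52. Both pulsed arrays lay above both sham arrays in 5 of 6 pairs of region and batch. In any single pair 10 to 27.8% of all tested genes showed that order. The share of genes with it in 5 of 6 pairs was not counted.

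RefSeq promoter windows (GRCm38.p6, 250 bases before to 50 bases after the start site) were read for 2 members, C1ql3 on the minus strand at chr2:13010815-13011114 and Cbln4 on the minus strand at chr2:172043417-172043716. They are shown 5′ to 3′ on the strand of the gene. C1ql3 is a member with higher values after the pulse and Cbln4 one with no light difference that passed the test. The capitals mark the one motif match found.
C1ql3: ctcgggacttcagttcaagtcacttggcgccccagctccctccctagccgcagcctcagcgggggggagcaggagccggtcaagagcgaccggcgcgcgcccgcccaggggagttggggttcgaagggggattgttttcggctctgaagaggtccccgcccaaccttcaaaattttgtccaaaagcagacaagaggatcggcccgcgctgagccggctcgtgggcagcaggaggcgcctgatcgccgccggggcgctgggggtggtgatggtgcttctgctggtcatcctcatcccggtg
Cbln4: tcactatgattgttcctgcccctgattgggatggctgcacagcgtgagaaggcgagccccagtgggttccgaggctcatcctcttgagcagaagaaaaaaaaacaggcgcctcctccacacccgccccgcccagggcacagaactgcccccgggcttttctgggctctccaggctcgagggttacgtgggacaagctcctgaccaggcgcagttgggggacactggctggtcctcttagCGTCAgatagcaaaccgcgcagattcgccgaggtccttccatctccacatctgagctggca
Both windows were searched on both strands for the cyclic AMP response element TGACGTCA and its core TGACG, which lies within it, the AP-1 site TGANTCA, the E-box CACGTG, the Egr site GCGTGGGCG and the TATA box TATAAA. The capitals in Cbln4 are TGACG read on the opposite strand, at window position 240, position -11 from the start site. The C1ql3 window held none of the 6 motifs in these letters. Of 32851 promoter windows of this length, 1.79% held TGACGTCA, 20.8% TGACG, 7.81% TGANTCA, 7.15% CACGTG, 0.612% GCGTGGGCG and 13.6% TATAAA. Both windows were rich in G and C, at 66.3% with 25 CpG pairs in C1ql3 and 60.3% with 15 in Cbln4, where the median window had 52.7%.

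Cbln2, a cerebellin that links neurexins to delta glutamate receptors, went the other way and fell in the ventral SCN. There it read 9.99 and 9.43 (batch A) and 10.58 and 10.73 (batch B) on pulsed arrays, against 10.75 and 10.65 (batch A) and 11.34 and 11.37 (batch B) on sham arrays. Within each batch both pulsed arrays lay below both sham arrays, and the difference of -0.84 ± 0.182 passed the test across all genes (adjusted p = 0.0256, limma), a level 1.79-fold lower after the pulse. That order within a batch was shared by 20% of all tested genes in batch A and 20.9% in batch B. The call was lost when pulsed array 2 or 3 or sham array 1, 2, 3 or 4 of the ventral SCN was left out (adjusted p up to 0.163), while the difference stayed between -0.91 and -0.71. Without pulsed dorsal array 4 the adjusted p was 0.00894.

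In the dorsal SCN Cbln2 had 8.48 and 8.30 (batch A) and 9.24 and 8.81 (batch B) on pulsed arrays, against 8.94 and 9.30 (batch A) and 10.14 and 9.40 (batch B) on sham arrays. The arrays were ordered as in the ventral SCN, and the difference of -0.74 ± 0.182 did not pass (adjusted p = 0.133, 95% interval -1.12 to -0.36). In the central SCN the pulsed arrays read 10.29, 9.61, 10.81 and 10.92, against 10.60, 10.45, 10.96 and 11.14 on the sham arrays (-0.38 ± 0.182, adjusted p = 0.615). Cbln2 was the single member with both pulsed arrays below both sham arrays in all 6 pairs of region and batch, by -0.98 to -0.18. The share of all tested genes with that pattern was 0.474% (64 genes). The mean of a marker list of 6 neuronal genes moved in the same direction in the ventral SCN. Relative to the batch mean it was -0.33 to -0.20 on pulsed arrays and -0.19 to 0.00 on sham arrays. The list median of the light difference was -0.05, against -0.03 over all genes. None of the 6 passed the light test in any region, and the part of these markers in the Cbln2 difference was not tested. The mean of a list of 5 astrocyte markers moved the opposite way in the ventral SCN. It was 0.46 to 0.60 on pulsed ventral and 0.14 to 0.40 on sham ventral arrays, which did not overlap. The list median of the light difference was -0.02 (-0.03 over all genes), with Aldh1l1 at 0.33, Slc1a3 at -0.02, Aqp4 at -0.03 and Gjb6 at -0.45. Of the 5, Gfap, the filament protein of astrocytes, passed the light test in the ventral (1.28, adjusted p = 0.018) and dorsal SCN (1.33, adjusted p = 0.0319) and 0 passed in the central SCN, where Gfap had 0.97 (adjusted p = 0.155). The part of astrocyte markers in the Cbln2 difference was likewise not tested.

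Cbln1, the founding cerebellin of cerebellar synapses, was close to the detection level in batch A, and its light differences did not pass the test. In the dorsal SCN it read 3.97 and 4.64 (batch A) and 6.44 and 7.13 (batch B) on pulsed arrays, against 4.49 and 5.12 (batch A) and 8.48 and 8.37 (batch B) on sham arrays. The groups were apart in batch B, with both pulsed below both sham arrays, as in 14.1% of all tested genes. They overlapped in batch A, and the difference was -1.07 ± 0.393 (interval -1.89 to -0.26, adjusted p = 0.428). The third Cbln1 probe set differed there by -1.17 and the second by -0.93, but both were dim, each above 4 on 9 arrays. In the ventral SCN the pulsed arrays read 3.87, 3.66, 7.67 and 6.68, against 5.33, 4.31, 7.34 and 6.85 on the sham arrays (-0.49 ± 0.393, adjusted p = 1). The mean difference there was -1.06 in batch A and 0.08 in batch B, where the arrays overlapped. In the central SCN the pulsed arrays read 3.73, 4.63, 5.30 and 5.85, against 3.12, 4.09, 5.85 and 6.40 on the sham arrays (0.01, adjusted p = 0.999). The central means differed by 0.57 in batch A and -0.55 in batch B, and the arrays overlapped in both. Peptide genes of neighbouring hypothalamic neurons (Oxt, Trh, Crh, Sst and Gal) also varied among dorsal samples. Their mean relative to the batch was 0.28 to 1.70 on pulsed dorsal arrays and 1.10 to 1.69 on sham dorsal arrays, with 0 of 5 past the light test, and their part in the Cbln1 values was not tested.

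Cbln4, a cerebellin that also binds neurexins, had lower means after the pulse in all regions, and none of the differences passed. In the ventral SCN it read 5.17 and 5.27 (batch A) and 7.12 and 7.45 (batch B) on pulsed arrays, against 5.77 and 6.33 (batch A) and 7.79 and 7.97 (batch B) on sham arrays. These did not overlap within a batch, and the difference was -0.71 ± 0.314 (interval -1.37 to -0.06, adjusted p = 0.644). Of all tested genes, 20% in batch A and 20.9% in batch B had both pulsed below both sham ventral arrays. The central SCN had 7.57, 6.69, 9.36 and 9.32 on pulsed arrays against 7.74, 7.44, 9.14 and 10.08 on sham arrays (-0.36 ± 0.314, adjusted p = 0.876). The dorsal SCN had 6.78, 6.12, 8.92 and 7.27 on pulsed arrays against 6.80, 5.75, 8.65 and 9.08 on sham arrays (-0.30 ± 0.314, adjusted p = 0.695). The low dorsal value of 7.27 was that of pulsed array 4, and without it the dorsal difference was 0.07.

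Nptx1 and C1ql3 were chosen with the light contrasts known and are left out of the counts for light. Of the other 3 tested members, Cbln1, Cbln2 and Cbln4, 0 were higher and 1 lower (Cbln2) in pulsed ventral SCN at an adjusted p below 0.05, where 0.585% of all tested genes were higher and 0.133% lower. In the central SCN 0 of the 3 were higher and 0 lower, with 0.296% of all genes higher and 0.0889% lower. In the dorsal SCN 0 were higher and 0 lower, with 0.148% of all genes higher and 0.0296% lower.

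**Figure D2:**
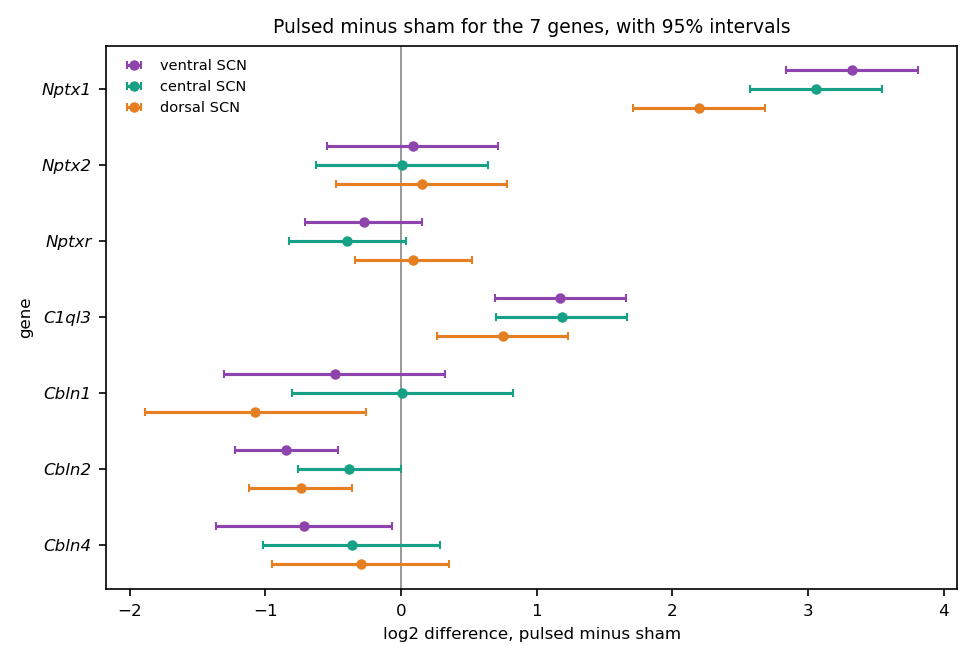
Fitted log2 difference, pulsed minus sham (horizontal axis), of the leading probe sets of the 7 genes in ventral, central and dorsal SCN, as points with 95% intervals from 4 against 4 arrays with the batch as a term. Nptx1 lies at 2.20 to 3.33 and C1ql3 at 0.75 to 1.19, Cbln2 lies at -0.84 to -0.38, and the intervals of Nptx2 and Nptxr, which had no test, include 0.

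Whether the light difference depended on the region was tested with an interaction term. The light difference of Nptx1 was 1.13 ± 0.333 larger in the ventral than in the dorsal SCN (95% interval 0.44 to 1.82), 0.86 ± 0.333 larger in the central than in the dorsal SCN and 0.26 ± 0.333 larger in the ventral than in the central SCN. For C1ql3 the same 3 differences were 0.43, 0.44 and -0.01 (each ± 0.329). The second, dimmer Nptx1 probe set had 0.60 for ventral against dorsal SCN (interval -0.74 to 1.93). The dorsal light difference of Nptx1, 2.20 with all arrays, was 2.41 without pulsed dorsal array 4. No member passed the interaction test after adjustment over all genes (adjusted p = 1 for Nptx1, C1ql3, Cbln1, Cbln2 and Cbln4, limma). Of all tested genes 1 (0.00741%) passed, and 276 had an unadjusted p under 0.05. Across 34 other settings the adjusted p of Nptx1 ranged from 0.639 to 1.

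**Figure D3:**
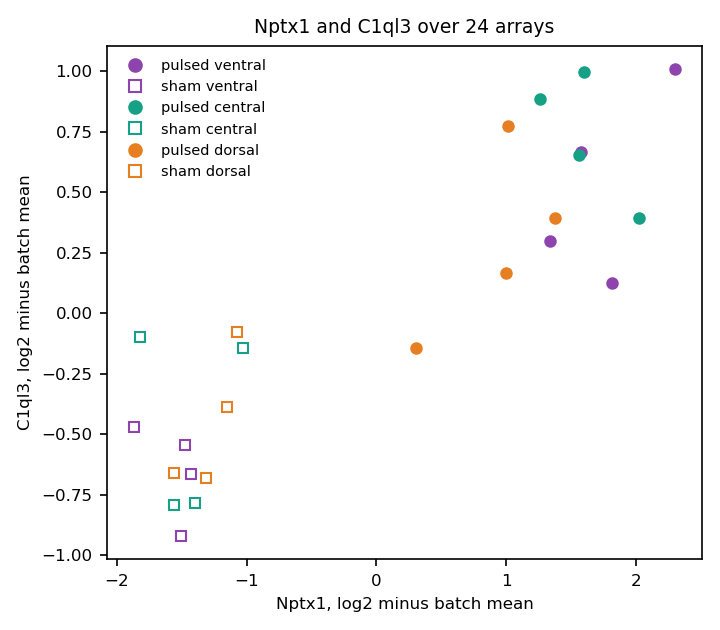
C1ql3 against Nptx1 on each of the 24 arrays, both as log2 values minus the mean of the batch, with filled circles for pulsed and open squares for sham arrays, coloured by region. All 12 pulsed arrays have a higher Nptx1 value than all 12 sham arrays, and the pulsed array closest to the sham arrays on both axes is dorsal array 4.

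The regions were compared over pulsed and sham arrays together (8 against 8), and each of the 3 cerebellins differed between some of them. Cbln2 was high in the ventral and central SCN and low in the dorsal SCN. It ranged over 9.43 to 10.75 in ventral, 9.61 to 10.60 in central and 8.30 to 9.30 in dorsal arrays of batch A. The ranges in batch B were 10.58 to 11.37 in ventral, 10.81 to 11.14 in central and 8.81 to 10.14 in dorsal arrays. Every dorsal array lay below every ventral and central array of its batch. How many of all tested genes had that order was not counted. The ventral minus dorsal difference was 1.53 ± 0.129 (2.88-fold, adjusted p = 7.91e-08) and the central minus dorsal difference 1.52 ± 0.129 (2.87-fold, adjusted p = 6.4e-08), while ventral and central SCN did not differ beyond their spread (0.01, 95% interval -0.26 to 0.27, adjusted p = 0.999). Peptide genes of neighbouring hypothalamus (Oxt, Trh, Crh, Sst and Gal) moved opposite to Cbln2, with 3 of 5 lower in the ventral and 4 of 5 lower in the central than in the dorsal SCN, among them Sst (-5.26 and -4.71). Of 6 neuronal markers 1 was lower in each of these comparisons, Syt1 (-2.04 and -1.86). The part of these markers in the Cbln2 differences was not tested.

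Cbln4 was highest in the central, intermediate in the dorsal and lowest in the ventral SCN. In batch A it ranged over 5.17 to 6.33 in ventral, 6.69 to 7.74 in central and 5.75 to 6.80 in dorsal arrays, and in batch B over 7.12 to 7.97, 9.14 to 10.08 and 7.27 to 9.08 in the same regions. Ventral and central arrays did not overlap in either batch, though the share of all tested genes with such a gap was not counted. Dorsal arrays overlapped the ventral ones in both batches, in batch B through pulsed dorsal array 4 (7.27), since the other dorsal arrays had 8.65 to 9.08. The ventral SCN was lower than the central by 3.50-fold (-1.81 ± 0.222, adjusted p = 1.15e-05), and the central was higher than the dorsal SCN by 1.99-fold (1.00 ± 0.222, adjusted p = 0.00595). The step between ventral and dorsal SCN was smaller (-0.81 ± 0.222, adjusted p = 0.0344) and missed the threshold without any 1 of 12 arrays (adjusted p of 0.0512 to 0.0841), all of them ventral or dorsal. Without pulsed dorsal array 4 it was -0.99 (adjusted p = 0.00138). Markers of oligodendrocytes, the myelin-forming cells, moved opposite to Cbln4: 5 of 5 were higher in the ventral than in the central SCN (median 2.64) and 4 of 5 were lower in the central than in the dorsal SCN (median -1.44). Their mean relative to the batch was 0.88 to 1.51 in pulsed ventral and 0.88 to 1.50 in sham ventral arrays, against -1.80 to -0.76 in pulsed central and -1.43 to -0.97 in sham central arrays, and their part in the Cbln4 differences was not tested.

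Cbln1 was lowest in the central SCN. Its batch B ranges were 6.68 to 7.67 in ventral, 5.30 to 6.40 in central and 6.44 to 8.48 in dorsal arrays. In batch A the regions overlapped, at 3.66 to 5.33, 3.12 to 4.63 and 3.97 to 5.12. The central minus dorsal difference was -1.21 ± 0.278 (2.31-fold lower in central, adjusted p = 0.00749), and all 3 probe sets went that way (-1.21, -1.31 and -0.92). Ventral against central (0.84 ± 0.278, adjusted p = 0.0954) and ventral against dorsal SCN (-0.37 ± 0.278, adjusted p = 0.575) did not pass. Ventral against central passed with array weights (0.99, adjusted p = 0.00721), with the mean of all probe sets (0.78, adjusted p = 0.0308) and without pulsed central array 2 (1.03, adjusted p = 0.0207). The peptide genes of neighbouring hypothalamus moved with Cbln1, with 4 of 5 lower in the central than in the dorsal SCN, among them Sst (-4.71, adjusted p = 1.44e-07) and Trh (-1.92, adjusted p = 4.64e-05). In the ventral against the central SCN 1 of the 5 was higher, Trh (1.87, adjusted p = 7.38e-05), and Sst (-0.55), Crh (-0.31), Oxt (0.25) and Gal (0.21) did not pass. Of the oligodendrocyte markers, 5 of 5 were higher in the ventral than in the central SCN. In the central against the dorsal SCN 4 of 5 were lower. These steps had the sign of those in Cbln1. In the ventral against the dorsal SCN 4 of 5 were higher (median 1.00), opposite to Cbln1 (-0.37). The part of adjacent tissue and of oligodendrocytes in the Cbln1 levels was not tested.

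Nptx1 and C1ql3, the members with higher values after the pulse, had no regional difference that passed. For Nptx1 the ventral minus dorsal, ventral minus central and central minus dorsal differences were 0.27, 0.01 and 0.26 (each ± 0.166, adjusted p = 0.476, 0.998 and 0.421). For C1ql3 they were 0.02, -0.20 and 0.22 (each ± 0.165, adjusted p = 0.977, 0.8 and 0.504). All 6 intervals lay between -0.54 and 0.62, so regional steps of the size of those in Cbln2 were outside them. Nptxr had a central minus dorsal difference of -0.58 (95% interval -0.88 to -0.27) and a ventral minus central difference of 0.38 (interval 0.07 to 0.68), from the fit over all probe sets and with no p. Without pulsed dorsal array 4 the central minus dorsal difference was -0.46 (interval -0.71 to -0.21). Its mean was lowest in the central SCN in both batches, at 5.84 to 7.12 and 8.59 to 8.98, with ventral arrays at 6.62 to 7.21 and 8.93 to 9.23 and dorsal arrays at 7.01 to 7.21 and 8.99 to 10.10.

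Of the 5 tested members, 1 was higher and 1 lower in the ventral against the dorsal SCN, where 2.63% of all genes were higher and 1.98% lower. Ventral against central had 0 higher and 1 lower (4.36% and 0.845% of all genes), and central against dorsal had 2 higher and 1 lower (1.96% and 5.14%).

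**Figure D4:**
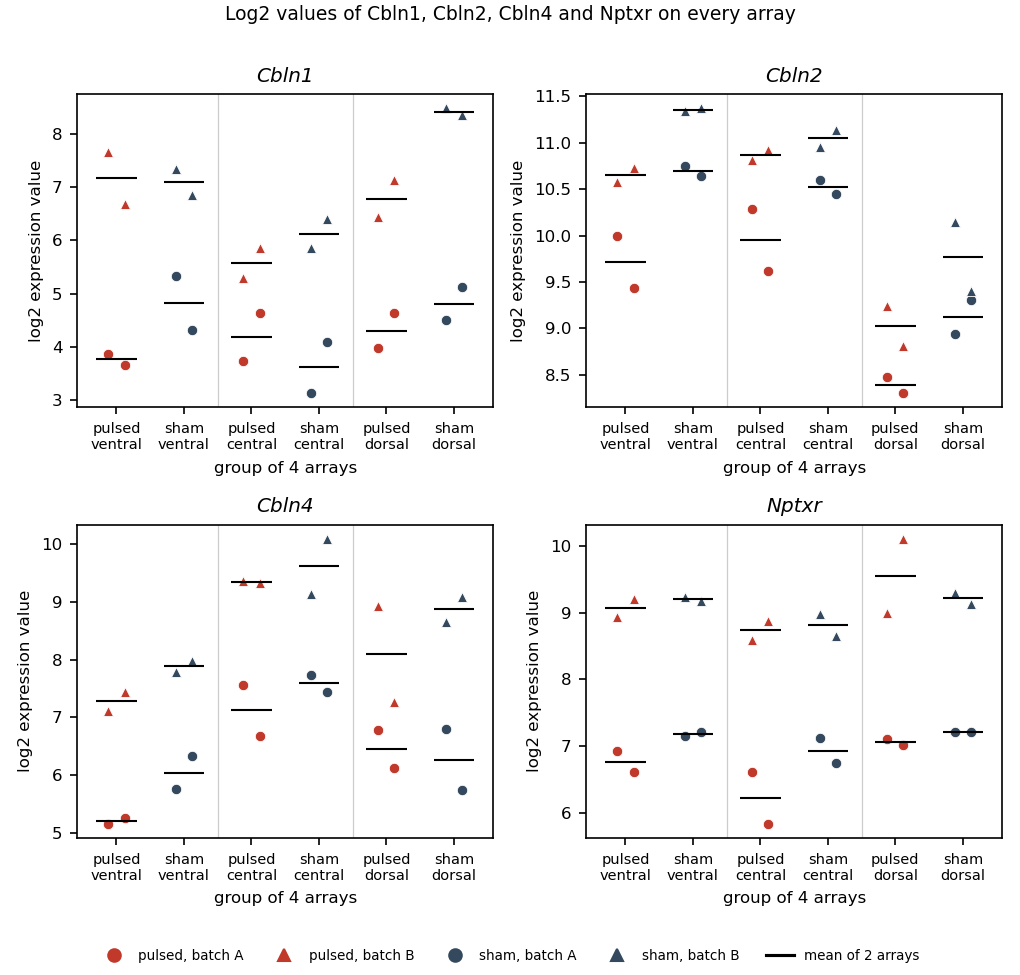
Log2 expression values (vertical axis) of Cbln1, Cbln2, Cbln4 and Nptxr on each of the 24 arrays by group, with circles for batch A, triangles for batch B and black lines for the mean of the 2 arrays of a batch. Cbln2 is lowest in the dorsal SCN, Cbln4 is highest in the central SCN, and Cbln1 of batch B is lowest in the central SCN.

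For each tested member the genes most like it were named by Pearson's r over the 24 arrays after subtraction of the batch mean, 5 for Nptx1 and 3 for the others. These correlations are descriptions, since arrays share batch, treatment and region and the genes were picked for a high r. Nptx1 was most like St8sia6, a sialyltransferase (r = 0.94), Emd, the nuclear envelope protein emerin (0.938), Pde4d, a cyclic AMP phosphodiesterase (0.926), Trmt61b (0.916) and Per2, a repressor of the circadian feedback loop (0.898). For Nptx1 the arrays form a pulsed and a sham cluster, so these values mostly describe the step between them. C1ql3 was most like Slc2a13, an inositol transporter (0.944), Prok2, a secreted SCN output signal (0.931), and Pde4d (0.901). Cbln2 resembled Stk32a (0.911), Vav3 (0.897) and Scube3 (0.896). Cbln4 resembled Map3k5, a stress-activated kinase (0.866), Fgf14 (0.85) and Nrp2, a semaphorin receptor (0.849). Cbln1 resembled Otp, a homeobox factor of hypothalamic neurons (0.861), Sult1a1 (0.802) and Hs3st4, a heparan sulfate modifying enzyme (0.799).

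The known partners of these proteins were read as a list. Of 13 tested genes for receptors and binding partners (AMPA, delta and kainate receptor subunits, neurexins, Adgrb3, Dcc, Neo1 and Adam17), 0 passed the light test in any region. Of all tested genes 0.719%, 0.385% and 0.178% passed in ventral, central and dorsal SCN, so 0 of 13 sets these partners apart from no other genes. The list medians were -0.27, -0.35 and -0.09 in ventral, central and dorsal SCN against -0.03, -0.08 and -0.03 over all genes. Adgrb3, the receptor of C1ql3, had -0.39, -0.50 and -0.03 in ventral, central and dorsal SCN (adjusted p = 0.768, 0.429 and 0.963). The AMPA receptor subunits that pentraxins gather had differences of -0.48, -0.59 and -0.47 for Gria4 (adjusted p = 0.528, 0.292 and 0.449) and -0.34, -0.66 and -0.05 for Gria3 (adjusted p = 0.888, 0.199 and 0.928), with Gria1 at -0.55 in the dorsal SCN (adjusted p = 0.452). By region, Gria3 was lower in the ventral and in the central than in the dorsal SCN (-1.08 and -1.77, adjusted p = 1.28e-05 and 1.19e-08) and higher in the ventral than in the central (0.69, adjusted p = 0.00199). The kainate receptor subunit Grik2, a partner of C1ql proteins in the hippocampus, was higher in the ventral and in the central than in the dorsal SCN (0.45 each, adjusted p = 0.0493 and 0.0363, limma). Across all tested genes 4.61% passed in ventral against dorsal, 5.2% in ventral against central and 7.11% in central against dorsal SCN.

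Of 7 further pentraxin and C1q-like relatives 2 were tested, C1ql1 and C1ql2, and 0 of these passed in any comparison. Their light differences lay between -0.33 (C1ql2, dorsal) and 0.10 (C1ql1, dorsal). Among 38 tested genes of other synapse organizers, 1 passed the light test in each region, Il1rap, a partner of the presynaptic receptor Ptprd, where 0.585%, 0.296% and 0.148% of all genes were higher in pulsed ventral, central and dorsal SCN. It rose by 1.09 in the ventral, 1.46 in the central and 1.08 in the dorsal SCN (adjusted p = 0.0147, 0.00178 and 0.0391). The next smallest p belonged to Thbs2, a thrombospondin, in the ventral (0.76, adjusted p = 0.385), Flrt1 in the central (-0.63, adjusted p = 0.334) and Lrrtm1 in the dorsal SCN (1.47, adjusted p = 0.463). By region 5 of the 38 were higher in the ventral than in the dorsal SCN (2.63% of all genes were), namely Lrrtm3, a postsynaptic neurexin ligand (1.58, adjusted p = 9.97e-08), Slitrk5 (0.82), Lrrtm2 (0.67), Flrt2 (0.61) and Lrrc4c (0.43). The 3 lower ones (1.98% of all genes) were Adgrl2, a latrophilin (-0.99, adjusted p = 9.04e-05), Clstn2 (-0.82) and the glypican Gpc4 (-0.73). In the ventral against the central SCN, with 4.36% of all genes higher and 0.845% lower, 3 were higher, Lrrtm1 (1.66), Il1rap (0.79) and Sparcl1 (0.49), and 4 lower, Slitrk1 (-1.07), Gpc6 (-0.98), Gpc4 (-0.81) and Adgrl2 (-0.64). In the central against the dorsal SCN, with 1.96% of all genes higher and 5.14% lower, 6 were higher, Lrrtm3 (1.40, adjusted p = 5e-07), Flrt3 (1.08), Slitrk1 (0.76), Slitrk5 (0.68), Ptprf (0.48) and Ptprd (0.46), and 2 lower, Clstn2 (-1.11) and Il1rap (-1.01). Lrrtm3, like Cbln2, was thus higher in both the ventral and the central than in the dorsal SCN.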

How the data were processed

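One Affymetrix mouse array was hybridised per sample, and the deposited table holds the authors' log2 values of 45101 probe sets on 24 arrays. The submitters' processing notes name GCRMA 2.32.0, MAS5 and R 3.0.2 with no role, and do not state the normalization of the 2 batches. Of the probe sets, 34945 had 1 symbol in the platform annotation, 932 several, 9160 none, and 64 were controls; 34741 were matched by Entrez ID to RefSeq (GRCm38.p6), which changed 0 symbols.

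A gene was read from its probe set with the highest mean over the 24 arrays among those with 1 symbol, and was tested if that exceeded 4 on at least 4 arrays. This kept 13494 of 18193 genes and left out 4699. Differences were fitted with limma 3.58.1 in R 4.3.3 (lmFit, eBayes) as 6 group means plus a batch term, with 17 residual and 4.7 prior degrees of freedom. P-values are two-sided, adjusted by Benjamini-Hochberg over all tested genes, with a threshold of 0.05, and errors after ± are SE. Nptxr and Nptx2 were read from the same fit over all probe sets, without p. The fit was tested on simulated data with independent spread on each array, so that test does not cover deviations that arrays share. The members and gene lists were chosen with earlier results of these data known, so no list is independent support. The genes named are the 7 members, the 5 (Nptx1) or 3 genes most like a member, and in each related-gene list those that passed, or, where fewer than 2 passed, the 2 with the smallest p. The alternatives were other scales, filters, probe set rules, array weights, single batches, a region's arrays or sham arrays alone, no batch term, a replicate block and leaving out each array, run for the members. Precision is limited by the number of arrays.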

Additional observations from a re-analysis of the deposited data

How the results depend on the processing

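The number of members past the test was 3, 2 and 1 for light in ventral, central and dorsal SCN, and 2, 1 and 3 for ventral minus dorsal, ventral minus central and central minus dorsal. The light counts include Nptx1 and C1ql3, chosen with these contrasts known, so nothing is read from them. Without the batch term these became 0, 0, 0, 0, 0 and 1. In batch A alone ventral minus dorsal and central minus dorsal each had 1, and in batch B alone light had 1, 1 and 0 and ventral minus dorsal 1, each from 2 arrays a group. In a fit of 1 region's arrays the central light count was 1 and the dorsal 0. Sham arrays alone gave 1 for ventral minus dorsal. The mean of all probe sets gave 2 for ventral minus central, and array weights 2 there (Cbln1 gained in each) and 4 for dorsal light. Array weights brought Cbln1 and Cbln2 in the dorsal SCN (-1.38 and -0.65, adjusted p = 0.0351 and 0.0142) and Cbln4 in the ventral SCN (-0.69, adjusted p = 0.0448) past the light test. Leaving out 1 array gave 1 to 3 for ventral light (1 without pulsed ventral array 2 or sham ventral array 1), 1 to 2 for central light (1 without pulsed or sham central array 1 or 2), 1 to 2 for ventral minus dorsal and 1 to 2 for ventral minus central (2 without pulsed central array 2, with Cbln1 gained). The interaction count was 0 in all settings run.

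Over all genes, light counts of 97, 52 and 24 in ventral, central and dorsal SCN became 124, 98 and 40 with a replicate block, 576, 204 and 353 with array weights, 0, 0 and 0 without the batch term, 10, 9 and 2 in batch A, 7, 5 and 0 in batch B, 118, 94 and 51 after quantile normalization, and 213, 16 and 0 with 1 region's arrays. Regional counts over all genes were 622, 702 and 959 for ventral minus dorsal, ventral minus central and central minus dorsal. They became 4, 9 and 7 without the batch term and 1374, 1390 and 1762 with array weights. Batch A gave 155, 210 and 183, batch B 132, 176 and 220, and sham arrays alone 441, 433 and 645. The mean of all probe sets gave 626, 654 and 940. The replicate block changed no call of a member (Cbln2, ventral light, adjusted p = 0.0171). Deviations of arrays with the same number correlated at 0.209 to 0.623 in batch A and 0.096 to 0.46 in batch B. The labels do not say that a number marks a shared animal, so the numbers were treated as names.

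Differences that changed sign in some setting passed no test in either direction. For Nptx1, sham arrays alone gave -0.29 for ventral minus dorsal, -0.12 for ventral minus central and -0.18 for central minus dorsal. Its ventral minus central difference was -0.0175 after median centring, -0.082 after quantile normalization, -0.0762 with the mean of all probe sets, -0.23 in batch B, -0.0059 with array weights and -0.0819 to 0.0887 when 1 array was left out. C1ql3, ventral minus dorsal, was -0.0012 after centring, -0.0459 after quantile normalization, -0.0047 with the mean of all probe sets, -0.0932 in batch B, -0.0638 with array weights, -0.20 on sham arrays and -0.0705 to 0.10 without 1 array, and its central minus dorsal difference was -0.0024 on sham arrays. Cbln1 had a ventral light difference of 0.0803 in batch B. Its central light difference was -0.0317 after centring, -0.0613 with the mean of all probe sets, -0.55 in batch B, -0.29 with array weights and -0.36 to 0.32 without 1 array. Cbln2, ventral minus central, was -0.0259 after centring, -0.0327 in batch A, -0.0174 with array weights and -0.0711 to 0.0737 without 1 array. Cbln4 had a dorsal light difference of 0.18 in batch A, 0.22 with array weights and -0.58 to 0.0676 without 1 array. In a setting chosen after seeing the data, without pulsed dorsal array 4 in the fit over all probe sets, the dorsal light differences of Nptxr and Nptx2 were -0.16 and -0.37 and the ventral minus dorsal difference of Nptx2 was 0.00269, each opposite in sign to the value with all arrays. The light differences of Nptx1 stayed at 2.68 to 3.47, 2.48 to 3.22 and 1.82 to 2.53 in ventral, central and dorsal SCN in all 35 settings run for each. The cause of these changes was not tested, apart from the fewer arrays or probe sets that a setting uses by its construction.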
